A study of Mus musculus with 2 samples.

Results

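The genes described here are 10 integrin subunits of epithelial cells (*Itgb1*, *Itga6*, *Itgb4*, *Itga2*, *Itga3*, *Itga5*, *Itgav*, *Itgb6*, *Itgb8* and *Itga9*), chosen by name from the 49492 genes of the count table, in mammary basal cells of control mice and of mice given clodronate liposomes (CL). All 10 were listed, and all 10 passed the filter of at least 20 counts in the sum of the libraries, as did 17356 genes in all. Mammary epithelial cells of wild-type (WT) mice were sorted by flow cytometry as lineage-negative cells with CD24 and high CD29, which is the protein of *Itgb1*, and their total RNA was sequenced. Ctrl basal came from mice that the sample label lists as having had no treatment and the series text as having had saline, and CL basal came from mice given CL, lipid vesicles that kill the macrophages taking them up. Both were labelled day 7. The genotype was the same in both, the mice were adult females, CL was injected repeatedly into the abdominal cavity, and the number of animals behind each library is not given in the sources used here. There was 1 library per group, with 37846008 counts in Ctrl basal and 38962512 in CL basal. No difference below therefore has a replicate check, and each compares these 2 libraries, not the conditions.

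Integrins are receptors made of an alpha and a beta subunit that hold cells to the extracellular matrix and link it to the cytoskeleton. In the mammary gland they anchor basal cells to the laminins and collagens of the basement membrane. *Itgb1* pairs with most alpha subunits, among them those of *Itga2*, *Itga3*, *Itga5*, *Itga6*, *Itga9* and *Itgav*. *Itgb4* pairs with *Itga6* alone and builds hemidesmosomes, while *Itgb6* and *Itgb8* pair with *Itgav* alone and release active TGF-beta from its latent form.

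In CL basal, *Itgb6* and *Itga2* were lower than in Ctrl basal by more than 1.5-fold, and no subunit was higher by as much. *Itgb4* and *Itga5* had values close to this threshold, and the log2 fold changes of *Itgb1*, *Itga3*, *Itga6* and *Itgav* lay between -0.050 and 0.12. Counts were scaled by TMM (trimmed mean of M-values) library sizes, and a change is given as the log2 fold change of CL basal over Ctrl basal, with a 95% exact binomial (Clopper-Pearson) interval that covers counting error only. The 2 members past 1.5-fold, both lower, compare with 11.7% of all tested genes that were lower by as much and 6.33% that were higher. At 2-fold, 1 member (*Itgb6*) was lower, against a background of 4.79% lower and 2.07% higher. The share depends on abundance. Of 7097 genes with 1000 or more counts in sum, which include 8 of the members, 2.21% were 1.5-fold lower, 1.04% were 1.5-fold higher, 0.535% were 2-fold lower and 0.155% were 2-fold higher. *Itga2* was the member of that class past 1.5-fold, and none of the 8 was past 2-fold. The median over the 10 members was -0.045, beside -0.0066 over all tested genes.

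*Itgb6* and *Itga2* had the largest changes and *Itga5* a smaller one in the same direction, and the stretch upstream of each gene's start is shown here beside that of *Itgb1*, which was level. RefSeq promoter windows (GRCm38.p6) were matched by symbol for 8 of the 10 members, not for *Itgb4*, whose change was slightly larger than that of *Itga5*, or *Itga6*. The sequences run 5′ to 3′ on the strand of the gene and end at the base before the RefSeq start, except for *Itgb6*, where the last 40 bases before that start lie in an exon of the count table and are left out. Capitals mark CpG dinucleotides. The windows lie at chr2:60722644-60722853 (*Itgb6*, minus strand), chr13:114932101-114932350 (*Itga2*, minus strand), chr15:103366792-103367041 (*Itga5*, minus strand) and chr8:128685404-128685653 (*Itgb1*, plus strand).
Itgb6: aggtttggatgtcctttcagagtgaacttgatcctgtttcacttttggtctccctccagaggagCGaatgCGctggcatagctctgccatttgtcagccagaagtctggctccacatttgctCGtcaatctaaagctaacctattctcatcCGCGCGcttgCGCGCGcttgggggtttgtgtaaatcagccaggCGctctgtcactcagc
Itga2: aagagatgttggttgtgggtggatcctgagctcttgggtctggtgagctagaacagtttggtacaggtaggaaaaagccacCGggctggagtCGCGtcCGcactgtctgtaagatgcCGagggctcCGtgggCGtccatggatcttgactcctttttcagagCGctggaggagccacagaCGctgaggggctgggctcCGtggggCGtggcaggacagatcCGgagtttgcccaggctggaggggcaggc
Itga5: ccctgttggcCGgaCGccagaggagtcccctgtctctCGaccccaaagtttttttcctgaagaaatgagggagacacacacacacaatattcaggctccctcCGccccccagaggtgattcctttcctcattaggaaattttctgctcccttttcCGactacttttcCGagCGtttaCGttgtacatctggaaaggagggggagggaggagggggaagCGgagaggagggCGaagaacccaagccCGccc
Itgb1: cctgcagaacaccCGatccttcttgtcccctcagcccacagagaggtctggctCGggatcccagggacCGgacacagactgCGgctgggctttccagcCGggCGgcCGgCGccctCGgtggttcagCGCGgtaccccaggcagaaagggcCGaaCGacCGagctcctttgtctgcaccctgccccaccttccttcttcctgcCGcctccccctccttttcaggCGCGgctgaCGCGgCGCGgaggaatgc

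The full window of 250 bases held 11 CpG dinucleotides for *Itgb6*, 12 for *Itga2*, 11 for *Itga5* and 21 for *Itgb1*, against a median of 6 over 32851 such windows. RefSeq lists a second start for *Itgb6*, whose window (chr2:60673694-60673943) held 3, and which start these cells used was not tested. These windows were searched on both strands for the letters of a GC box (GGGCGG, bound by Sp1), an AP-1 site (TGANTCA), an NF-kB site and a TATA box (TATAAA). GC boxes were found for *Itga5* (2) and *Itgb1* (1) and for neither *Itgb6* nor *Itga2*, and 32.7% of all windows held at least 1. Of the other matched members, *Itga3* had 3 in the window at its gene start. *Itgav*, *Itgb8* and *Itga9*, none of them changed by 1.5-fold, had none, so lack of a GC box was not particular to the lower subunits. No AP-1, NF-kB or TATA box letters were found in the windows of *Itgb6*, *Itga2*, *Itga5* and *Itgb1*, and 6.75%, 1.41% and 12.4% of all windows held them. These matches describe the letters of the windows and say nothing about binding in these cells.

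The levels of different subunits were compared per length, as CPM (counts scaled to a library of 1000000) divided by the kilobases of exon. *Itgb1* (chromosome 8, 128685654 to 128733200, GRCm38, plus strand, 17 merged exons) had by far the highest level, 204.8 in Ctrl basal and 199.3 in CL basal, which in each library placed it above 98.9% of the genes with a count there. *Itga3*, which with *Itgb1* forms a laminin receptor, followed with 45.9 and 44.3. *Itgb4* and *Itga6*, the subunits of the hemidesmosome, were at 33.2 and 32.9 in Ctrl basal and at 23.3 and 35.7 in CL basal. Their counting intervals overlapped in Ctrl basal (32.5 to 33.9 and 32.3 to 33.5) and were apart in CL basal (22.8 to 23.9 and 35.1 to 36.4). *Itga5* and *Itgav* were at 19.8 and 14.2 in Ctrl basal and could not be ranked in CL basal, where both were near 14.2 to 14.3. *Itga2* (10.6 and 5.68) and *Itga9* (6.69 and 7.43) changed places between the libraries, an exchange seen only with division by length. *Itgb6* and *Itgb8* were the lowest in both, at 0.832 and 0.714 in Ctrl basal, where their intervals overlapped, and at 0.241 and 0.863 in CL basal, where they were apart.

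**Figure D1:**
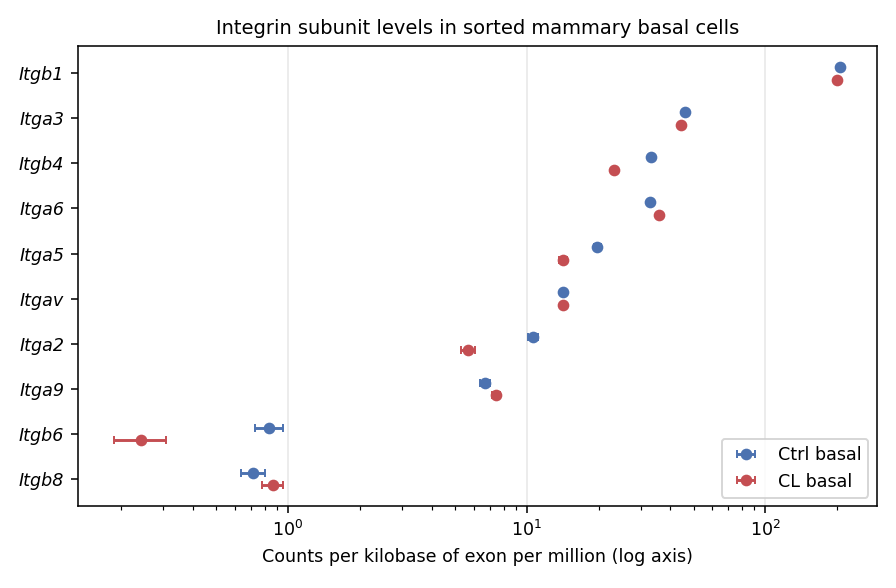
Level of each of the 10 integrin subunits in CPM per kilobase of exon (log axis) in Ctrl basal and CL basal, 1 library each, with 95% exact Poisson intervals that cover counting error only. *Itgb1* lies far above the rest near 200 in both libraries, and the points of *Itgb6* (0.832 and 0.241) stand furthest apart.

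*Itgb6*, whose product binds latent TGF-beta on epithelial cells, had 227 counts in Ctrl basal and 66 in CL basal. Its level was 3.38-fold lower in CL basal (log2 fold change -1.76, 95% interval -2.20 to -1.38). The gene lies on chromosome 2 (60598292 to 60722643, minus strand, 20 merged exons), and none of its exonic bases were shared with another gene of the table. Of the Ctrl basal genes with 1 to 20 counts, 67.9% had an even count, so both mates of a read pair may have been counted, and with counts halved the interval widened to -2.39 to -1.21. *Itgb6* belongs to the class of 6410 genes with at least 100 and under 1000 counts in sum, whose log2 fold changes had a standard deviation of 0.46, and of which 3.26% were at least 2-fold lower.

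*Itgb8* (chromosome 12, 119158022 to 119238802, minus strand, 14 merged exons), the other member that pairs with *Itgav* alone, had 303 counts in Ctrl basal and 367 in CL basal (log2 fold change 0.27, 0.05 to 0.50). This interval reached below 0 with counts halved (-0.045 to 0.59). *Itgav* itself (chromosome 2, 83724397 to 83806916) had 5865 and 5891 counts (log2 fold change 0.0026, -0.050 to 0.055), and its sign changed with the processing. The ratio of *Itgb6* to *Itgb8* per length went from 1.17 in Ctrl basal to 0.280 in CL basal, a change of -2.06 on the log2 scale (-2.51 to -1.61) that does not depend on the library scaling.

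*Itga5*, the alpha subunit of the classical fibronectin receptor, had 3370 counts in Ctrl basal and 2421 in CL basal. Its log2 fold change was -0.48 (-0.56 to -0.41), short of 1.5-fold. The gene lies on chromosome 15 (103344286 to 103366763, minus strand, 31 merged exons). Integrins with *Itga5* and those with *Itgav* both bind the RGD motif of fibronectin, and the fold changes of these alpha subunits had intervals that did not overlap.

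*Itga2*, the alpha subunit of a collagen receptor, had 1715 counts in Ctrl basal and 920 in CL basal. Its level was 1.87-fold lower in CL basal (log2 fold change -0.90, -1.02 to -0.79, and -1.07 to -0.74 with counts halved). The gene lies on chromosome 13 (114835916 to 114932041, minus strand, 30 merged exons). The table counts 4214 exonic bases for it where GENCODE release M21 has 7133, so its level per length rests on part of the transcript, while its fold change compares the same bases in both libraries. For 8 of the members the table's merged exons equal those of GENCODE M21 in length, and for *Itga5* the table has 4442 bases where GENCODE has 4933.

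Among the laminin receptors, *Itgb4* (chromosome 11, 115974709 to 116008412, plus strand, 41 merged exons) had 8932 counts in Ctrl basal and 6291 in CL basal (log2 fold change -0.51, -0.56 to -0.46). This was a 1.42-fold lower level and missed the threshold, which it passed (-0.59) once the trend of the log2 ratio on mean expression was removed. Of its 7015 exonic bases, 537 lie under *B230344G16Rik* on the other strand, which had 1168 and 843 counts, and whether strand was used in counting is not given in the sources used here. *Itga6*, its only alpha partner and the protein CD49f, had 11400 and 12403 counts (0.12, 0.08 to 0.15), and *Itga3* had 10046 and 9726 (-0.050, -0.091 to -0.010). *Itga6* lies on chromosome 2 (71745616 to 71858416, plus strand, 31 merged exons) and *Itga3* on chromosome 11 (95044474 to 95076801, minus strand, 27 merged exons). Per length, the ratio of *Itgb4* to *Itga6* went from 1.01 in Ctrl basal to 0.653 in CL basal, a change of -0.63 on the log2 scale (-0.69 to -0.57).

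*Itgb1* had 32056 counts in Ctrl basal and 31272 in CL basal (log2 fold change -0.040, -0.062 to -0.017). The value is smaller than the standard deviation of 0.24 over the 1505 genes with 10000 or more counts in sum. Since cells were gated on high CD29, a level of *Itgb1* mRNA in these libraries is that of cells already selected for its protein. *Itga9* (chromosome 9, 118606690 to 118901003), which pairs with *Itgb1* and binds tenascin, had 1973 and 2198 counts (log2 fold change 0.15, 0.06 to 0.24).

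**Figure D2:**
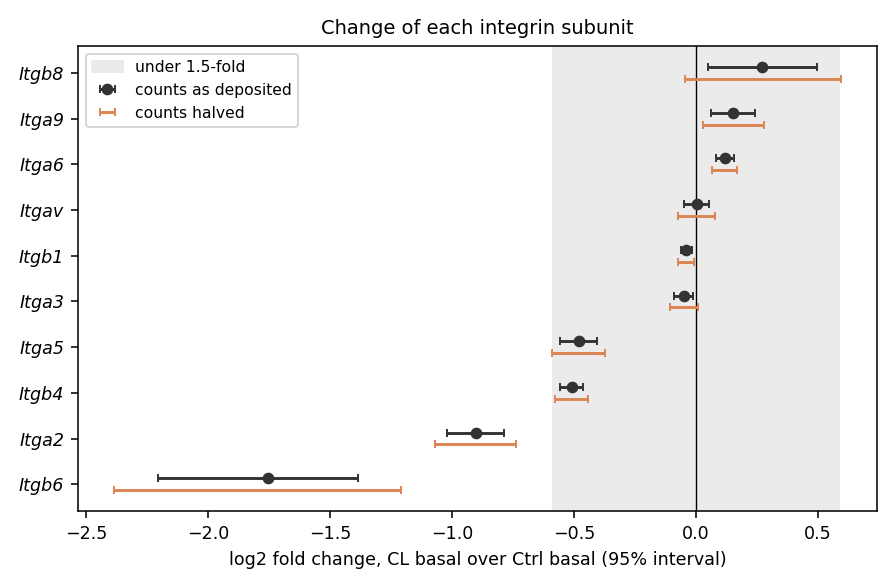
Log2 fold change of each integrin subunit, CL basal over Ctrl basal, with 95% exact binomial intervals from the counts as deposited (black) and from counts halved (orange). *Itgb6* (-1.76) and *Itga2* (-0.90) lie outside the grey band of changes under 1.5-fold, *Itgb4* (-0.51) and *Itga5* (-0.48) lie near its edge, and the other 6 lie between -0.050 and 0.27.

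Intervals below 0 were found for 6 members (25.4% of all tested genes) and intervals above 0 for 3 (25.2%). With counts halved these were 5 members (17.5%) and 2 members (18.6%). Of the genes with 1000 or more counts, 27.2% had an interval below 0 and 41.4% one above 0, and with counts halved 21.6% and 34.6%. An interval apart from 0 was thus common among all genes and by itself sets no subunit apart.

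**Figure D3:**
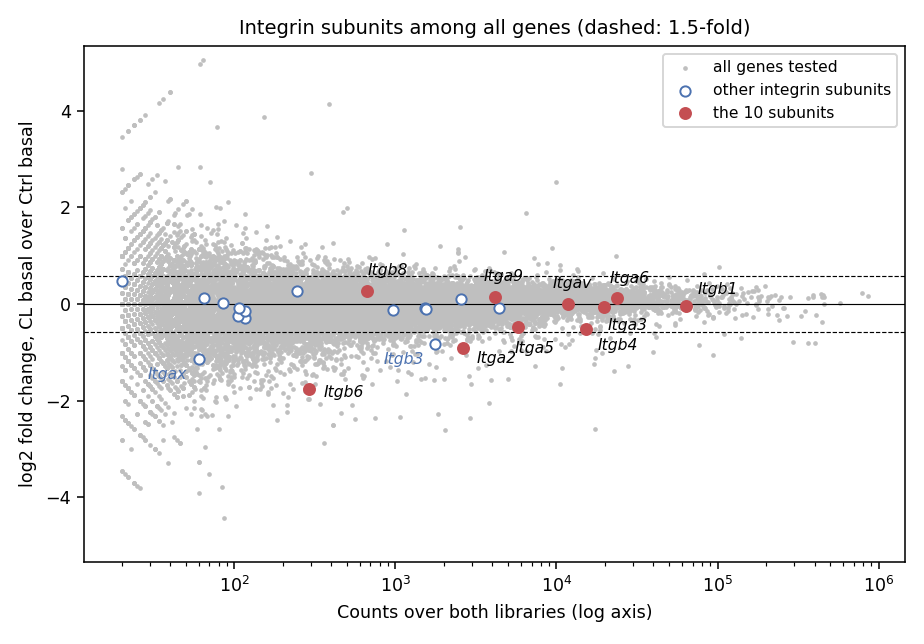
Log2 fold change against counts over both libraries (log axis) for the 17356 tested genes (grey), the 10 integrin subunits (red) and the other integrin subunits of the genome that were tested (blue circles), with dashed lines at 1.5-fold. *Itgb6* and *Itga2* lie below the lower line together with *Itgb3* (-0.83) and *Itgax* (-1.14), while the subunits with over 10000 counts lie close to 0 apart from *Itgb4*.

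The makeup of the mRNA of the members was then compared as shares of summed levels per length. These sums leave out *Itgb5* (17.4 CPM per kilobase in Ctrl basal and 16.5 in CL basal) and *Itgb3* (4.95 and 2.78). Among the 4 beta members, *Itgb1* made up 85.5% in Ctrl basal (95% counting interval 85.2 to 85.8%) and 89.1% in CL basal (88.8 to 89.3%). The level of *Itgb1* itself was not higher in CL basal (log2 fold change -0.040). *Itgb4* made up 13.9% and 10.4%, *Itgb6* 0.347% and 0.108%, and *Itgb8* 0.298% and 0.386%. Among the 6 alpha members, *Itga3* had 35.3% in Ctrl basal and 36.4% in CL basal, and *Itga6* 25.3% and 29.4%. The Ctrl basal share of *Itga2* was 8.15% (7.80 to 8.53%) and its CL basal share 4.67% (4.39 to 4.97%), and that of *Itga5* 15.2% and 11.7%. *Itgav* (10.9% and 11.7%) and *Itga9* (5.14% and 6.11%) had somewhat higher shares in CL basal.

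**Figure D4:**
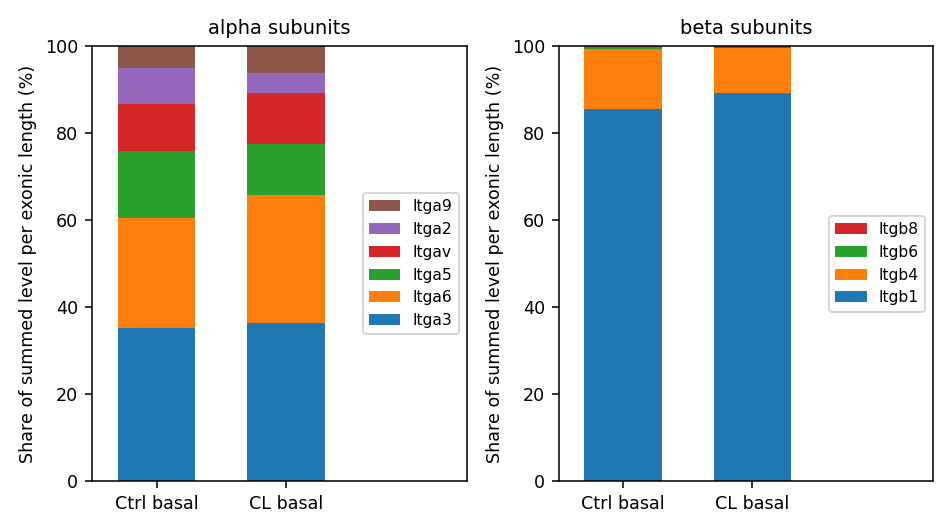
Share of each subunit in the summed level per exonic length of the 6 alpha members (left) and the 4 beta members (right), in percent, for Ctrl basal and CL basal. *Itga2* takes 8.15% of the alpha sum in Ctrl basal and 4.67% in CL basal, and *Itgb1* takes most of the beta sum in both.

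Partners were also set against each other within a library, which is free of the library scaling. The 6 alpha members summed to 0.635 of the level of *Itgb1* in the Ctrl library and 0.610 in the CL library. The ratio of *Itga2* to *Itgb1* changed by -0.86 on the log2 scale (-0.98 to -0.75) and that of *Itga5* to *Itgb1* by -0.44 (-0.52 to -0.36). The ratio of *Itga3* to *Itgb1* changed by -0.011 (-0.057 to 0.035), so the laminin receptor pair kept its proportion within counting error. The beta partners of *Itgav* outside the 10 were *Itgb5* and *Itgb3*. *Itgb5* was the more abundant of this pair, at 1.22 times the level of *Itgav* per length in Ctrl basal and 1.16 times in CL basal. *Itgb3*, the protein CD61, went from 0.348 to 0.195 of *Itgav*, a change of -0.84 on the log2 scale (-0.99 to -0.69). *Itgb3*, *Itgb5*, *Itgb6* and *Itgb8* together summed to 1.68 times *Itgav* in Ctrl basal and 1.43 times in CL basal.

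Most of the other integrin subunits had fewer counts than the members. Of 17 listed, 15 were tested, 2 were at least 1.5-fold lower and 0 were higher, with a median of -0.082. The share lower was 11.7% over all tested genes. *Itgb3* had 1121 counts in Ctrl basal and 630 in CL basal (-0.83, -0.98 to -0.69), in the class of 1000 or more counts in sum where 2.21% of genes were lower by as much as 1.5-fold. *Itgax*, the CD11c subunit of myeloid cells, had 42 and 18 counts (-1.14, -2.11 to -0.40), in the class of 20 to under 100 counts in sum where 28.4% of genes were 1.5-fold lower. *Itgb5* (2244 and 2132 counts), *Itga8* (1231 and 1320), *Itga2b* (799 and 747), *Itga1* (787 and 749) and *Itga7* (505 and 466) had log2 fold changes from -0.12 (*Itga7*) to 0.10 (*Itga8*). The leukocyte subunits *Itgal* (61 and 55 counts), *Itgam* (55 and 52), *Itgb2* (111 and 134), *Itgb7* (42 and 43), *Itga4* (64 and 52) and *Itgae* (8 and 12) were near the low end, as were *Itga10* (57 and 48) and *Itga11* (31 and 34). All of these 8 had intervals that included 0, so no difference was detectable for them at this depth.

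Of 36 adaptors and kinases at the integrin tails inside the cell, all tested, 2 were at least 1.5-fold lower and 0 were higher, with a median of -0.072. Over all tested genes these shares were 11.7% and 6.33%, and 2.21% and 1.04% over genes with 1000 or more counts, so the count does not set the list apart. *Actn1*, an actin crosslinker with the highest level per length of the list, had 47381 counts in Ctrl basal and 41493 in CL basal (-0.20). *Ptk2b*, a kinase related to focal adhesion kinase, had 737 and 435 counts (-0.76, -0.94 to -0.59), and *Lims2*, a partner of integrin-linked kinase, had 109 and 72 counts (-0.59, -1.05 to -0.16). The value of *Lims2* lies just past the threshold, and its interval included 0 with counts halved (-1.24 to 0.046). Of the 8 hemidesmosome and tetraspanin partners, 1 was lower, the tetraspanin *Cd82* (1734 and 1083 counts, -0.68), and the median was -0.10. *Cd63*, the most abundant of them per length, had 11886 and 10691 counts (-0.16).

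Of 30 ligands of these receptors, all tested, 3 were at least 1.5-fold lower and 0 were higher (median -0.12). The share lower was 11.7% over all tested genes and 2.21% over genes with 1000 or more counts in sum, a class that holds *Ccn2* and *Ltbp1*. *Lama2*, a laminin chain, had 363 counts in Ctrl basal and 144 in CL basal (-1.33, -1.63 to -1.06). *Ccn2* (listed as *Ctgf*), a matrix protein of the CCN family, had 26328 and 13250 counts (-0.99, -1.02 to -0.96), and it shares 665 of 2861 exonic bases with *Gm15270* on the other strand. *Ltbp1*, which ties latent TGF-beta to the matrix, had 1280 and 720 counts (-0.83, -0.97 to -0.70). The TGF-beta genes themselves did not pass 1.5-fold, with *Tgfb1* at -0.019, *Tgfb2* at 0.30 and *Tgfb3* at 0.21. *Thbs1*, the ligand with the highest level per length, had 88507 and 92280 counts (0.056).

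**Figure D5:**
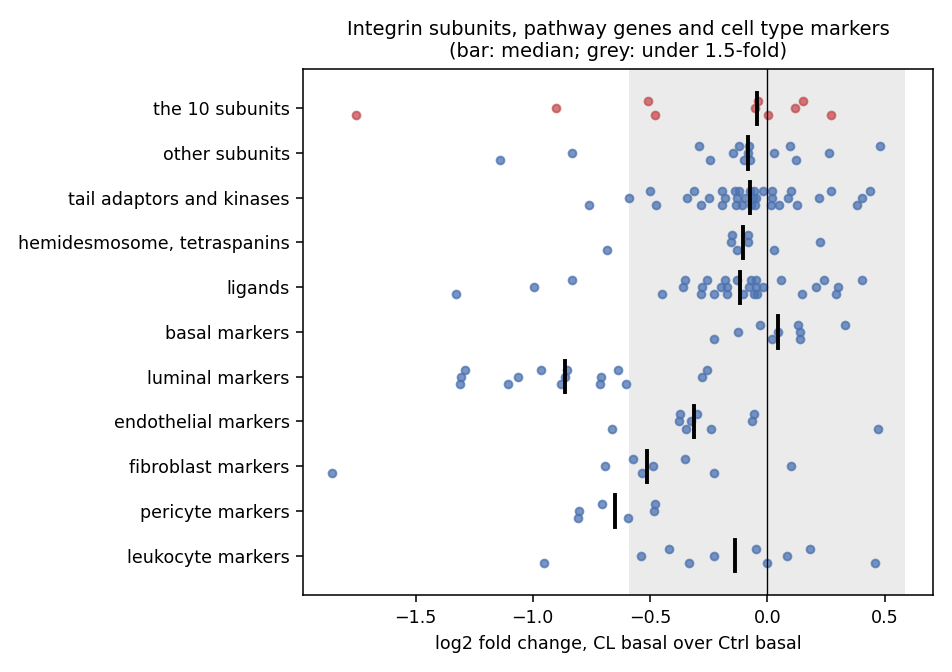
Log2 fold change, CL basal over Ctrl basal, of each tested gene in the 10 integrin subunits (red), in lists of related genes and in cell type marker lists (blue), with the median of each list as a black bar and changes under 1.5-fold in grey. The subunits have a median of -0.045 with *Itgb6* and *Itga2* far to the left, and the luminal markers have a median of -0.86.

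Markers of the sort and of other cell types were read beside these values. In bulk libraries, fewer cells of a type and less RNA per cell cannot be told apart. The basal list (9 genes, led by *Krt14*, a keratin of basal cells, with 210758 counts in Ctrl basal and 232845 in CL basal) summed to 17491 CPM in Ctrl basal and 18151 in CL basal, with a median log2 fold change of 0.046. Of its genes, 6 were above 0 and 3 below, among the latter the basal keratin *Krt5* (47049 and 40295 counts, -0.23). The luminal list was lower: 15 of its 15 genes had values below 0, 13 of them were past 1.5-fold, and its sum was 5489 CPM in Ctrl basal and 3392 in CL basal. Over all tested genes the median was -0.0066 and 11.7% were at least 1.5-fold lower, as were 2.21% of genes with 1000 or more counts in sum. *Krt8*, the most abundant gene of the luminal list, had 86539 and 53150 counts (-0.71), and *Areg* (-1.31), *Csn3* (-1.31), *Cldn4* (-1.29) and *Krt19* (-1.11) were more than 2-fold lower. The median of the luminal list was -0.86, beside -0.90 for *Itga2*, -1.76 for *Itgb6* and -0.83 for *Itgb3*. Against *Krt8* within each library, *Itga2* changed by -0.20 (-0.31 to -0.08) and *Itgb6* by -1.08 (-1.47 to -0.68), while *Itgb4* changed by 0.20 and *Itga5* by 0.23. These ratios depend on the reference gene, since *Krt8* (-0.71) was lower by less than *Itga2* (-0.90) and *Krt19* (-1.11) by more. The part of luminal RNA in the lower subunits was not tested.

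The lists of stromal and blood cells were smaller in sum, and their counts past 1.5-fold stand beside 11.7% lower and 6.33% higher over all tested genes and 2.21% and 1.04% over genes with 1000 or more counts in sum. The endothelial list (median -0.31, 1 of 10 past 1.5-fold, *Egfl7* at -0.66) summed to 558.7 CPM in Ctrl basal and 442.2 in CL basal. In it, 9 genes were below 0 and 1 was above, *Emcn* (154 and 215 counts, 0.47). The endothelial gene *Pecam1*, whose protein CD31 was used to exclude cells, had 5503 and 4266 counts (-0.37). The pericyte list (median -0.65, 4 of 6 past 1.5-fold, among them *Abcc9* at -0.81) summed to 132.0 and 87.9, and the fibroblast list (median -0.51, 2 of 8, *Lum* at -1.86 and *Dcn* at -0.69) to 256.8 and 209.3. The leukocyte list (median -0.14) summed to 34.7 and 30.3, with 7 of 10 tested genes below 0 and 3 above. *Mrc1* (-0.95) was past 1.5-fold, and the highest value was that of *Csf1r* (64 and 89 counts, 0.46). *Nkg7* (2 counts in Ctrl basal) and *Fcer1g* (6) were at 0 in CL basal, and neither passed the filter. *Ptprc*, the CD45 gene used for exclusion, had 537 and 521 counts (-0.047), and the sort gene *Cd24a* had 4606 and 4791 (0.053). The platelet and red cell list summed to 2.37 and 2.76, with 3 of 8 genes tested, 1 of them lower. *Ppbp*, *Hba-a2* and *Hbb-bt* were at 0 in both libraries, *Gp9* in Ctrl basal and *Hba-a1* in CL basal. The squamous list summed to 37.6 and 38.6, with 3 genes lower, among them *Sbsn* (-0.96), and 3 higher, among them *Krt1* (19 and 367 counts, 4.13) and *Krt10* (38 and 262 counts, 2.72). *Flg* was at 0 in both libraries. The gene of highest level per length had 4167 and 3216 counts in the endothelial list (*Plvap*), 2281 and 1635 in the pericyte list (*Rgs5*, -0.48), 233 and 185 in the leukocyte list (*Cd68*) and 55 and 78 in the platelet and red cell list (*Gp1bb*, 0.49). How far RNA of these cell types enters the subunit values was not tested.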

How the data were processed

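RNA of FACS sorted mammary basal cells was sequenced on an Illumina HiSeq instrument, with 1 library each for Ctrl basal and CL basal. The authors deposited raw counts of reads over the exons of each gene, with exonic lengths, in the layout of featureCounts. The submitters' processing notes name the builds GRCm38 and mm10. The aligner, counter version, strand setting and annotation release are not given in the sources used here. A ratio and a log2 fold change column of the authors were not used, and 26 gene names had become dates.

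Counts were scaled by TMM in edgeR 4.0.16 (R 4.3.3; factors 0.987 for CL basal and 1.013 for Ctrl basal), and genes with at least 20 counts were kept. Log2 fold changes used a prior count of 2, and the exact intervals of fold changes and levels came from scipy 1.17.1 in Python 3.11.15. Intervals of ratios between genes were normal approximations on the log scale, and those of shares were normal approximations on the log odds scale. With 1 library per group no replicate model (edgeR quasi-likelihood, DESeq2, limma) could be fitted, so no p-value is given and a gene was called by fold alone. The fold and interval code was tested on simulated data. The depth of a library sets the intervals, which cover counting error only, and copies made by PCR would make them too narrow.

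The members and lists were chosen with earlier results of these data known. Named genes were the members, the other tested integrin subunits, the sort genes, the TGF-beta genes and, in each further list, the most abundant gene per length and up to 4 genes of largest change past 1.5-fold with at least 100 counts. The TER119 antigen gene was not matched, and *Ccn1* and *Ccn2* were found by RefSeq synonyms. Alternatives were other scalings (total counts, DESeq2 1.42.0 size factors, upper quartile), prior counts of 0.5 and 5, other filters, thinning, counts halved, removal of trends on mean expression or exonic length, a 2-fold threshold, and shares without division by length. The motifs, *Csf1r*, *Krt5*, *Emcn* and the markers named for a count of 0 were chosen after values were seen.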

Additional observations from a re-analysis of the deposited data

How the results depend on the processing

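Of 110 member values under 11 alternatives, 102 stayed within the main 95% interval and no value past 1.5-fold changed sign. These totals include the filter settings (no filter, at least 100 counts), which change only which genes are kept. The member values could not move under them, so they say nothing about stability. *Itgb6* ran from -1.79 to -1.67 and *Itga2* from -0.94 to -0.88, both past 1.5-fold under each alternative, and at the 2-fold threshold 1 member (*Itgb6*) was lower. With total counts, *Itgb1* was at -0.078, *Itga6* at 0.080 and the median of the members at -0.083. With the trend on mean expression removed, *Itgb1* was at -0.12, *Itga6* at 0.034, *Itga3* at -0.13, *Itgav* at -0.074 and the median at -0.13, and *Itgb4* at -0.59 just passed 1.5-fold, which made 3 members lower. With the trend on exonic length removed, *Itgb1* was at -0.015. The cause of these shifts was not tested, apart from the scaling, which moves all genes alike. Without division by length, longer genes take larger shares: *Itgb1* had 77.2% of the beta sum in Ctrl basal and 82.3% in CL basal, *Itga3* had 29.23% and 28.98% of the alpha sum, and *Itga6* had 33.2% and 37.0%, so *Itga6* came before *Itga3*. *Itga9* (5.74% and 6.55%) then came before *Itga2* (4.99% and 2.74%) in both libraries. The other Ctrl basal shares moved as well, to 9.81% for *Itga5*, 17.1% for *Itgav*, 21.5% for *Itgb4*, 0.547% for *Itgb6* and 0.730% for *Itgb8*. No paired analysis was possible because the design has a lone library on each side. Depth limits *Itgb6* (66 counts in CL basal) and *Itgb8* most.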
